A study of Homo sapiens with 10 samples.

Results

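Heat shock proteins and cochaperones were followed in CFPAC-1 and PANC-1, 2 established human cell lines of pancreatic adenocarcinoma, through 24 h with imidazole ketone erastin or with its solvent control. The set was given as a list of 36 gene symbols, and all 36 were found among the 20289 genes of the table. Of these, 35 reached 1 FPKM in at least 2 libraries and were tested, among 13077 genes in all. The exception was CRYAB, a small heat shock protein of lens and muscle, which lay between 0 and 0.48 FPKM in the 10 libraries. Imidazole ketone erastin (IKE) is an erastin derivative that blocks system xc-, the cystine importer, and so depletes glutathione and can cause ferroptosis. CFPAC-1 was given 0.1% DMSO (2 libraries) or 10 µM IKE (2 libraries). PANC-1 was given 0.1% DMSO (2 libraries) or 1 µM IKE (4 libraries). The labels list DMEM and IMDM without assigning either medium to a line. Because the dose differed with the line, effects of line and dose cannot be told apart. RNA came from cells left after dead cells and debris had been discarded, so that change within cells and selection of surviving cells cannot be told apart either. FPKM is scaled to transcript length and library total, so levels of different genes can be compared on it. Fold changes are differences of log2(FPKM + 1), which understates changes of low genes.

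HSP70 proteins bind unfolded stretches of other proteins in a cycle of ATP binding and hydrolysis. J-domain proteins bring the client and trigger hydrolysis, while BAG proteins and the HSP110 family release the nucleotide. HSP90 then matures kinases, receptors and other clients with its own cochaperones, and small heat shock proteins hold unfolding clients without ATP. The transcription factor HSF1 raises many of these genes under heat, oxidants or misfolded proteins, by binding repeated GAA units in their promoters. Cancer cells often depend on this system because their protein folding load is high. The set is called cytosolic, but as textbook knowledge HSPA9, HSPD1, HSPE1 and DNAJA3 act in mitochondria and HSPA13 in microsomes, so the name does not cover every member.

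Promoter sequence is shown for 3 HSP70 genes that passed the test below as higher with IKE in PANC-1 (HSPA1A, HSPA1B and HSPA8). Of these only HSPA8 also passed in CFPAC-1. Sequence is also shown for 3 members that passed in neither line (HSP90AA1, CHORDC1 and DNAJB1). The heat shock element, the repeated GAA unit that HSF1 binds, can thus be read in each. HSPA1A and HSPA1B, the stress-inducible HSP70 pair, are given as the 150 bases just before their GENCODE 29 start, and the others as 30-base windows, all from RefSeq promoters of GRCh38.p14, with the element in capitals. Capitals mark the short form GAANNTTC in HSPA1A, HSPA1B and DNAJB1. In HSPA8, HSP90AA1 and CHORDC1 they mark the longer form of 3 units, in overlapping copies for CHORDC1. DNAJB1 has another GAANNTTC, in the window chr19:14518426-14518455, which is not printed.
HSPA1A, chr6:31815314-31815463, plus strand: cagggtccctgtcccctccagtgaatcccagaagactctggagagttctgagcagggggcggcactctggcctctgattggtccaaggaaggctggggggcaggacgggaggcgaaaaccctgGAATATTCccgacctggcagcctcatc
HSPA1B, chr6:31827585-31827734, plus strand: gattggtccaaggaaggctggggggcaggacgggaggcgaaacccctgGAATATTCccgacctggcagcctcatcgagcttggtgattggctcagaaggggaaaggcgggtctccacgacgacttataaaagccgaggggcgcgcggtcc
HSPA8, chr11:123062346-123062375, minus strand: ggcgagcttGAAAGTTCCAGAAcgctgcgg
HSPA8, chr11:123062171-123062200, minus strand: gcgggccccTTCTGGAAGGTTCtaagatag
HSP90AA1, chr14:102087112-102087141, minus strand: ggagggttcTTCCGGAAGGTTCgggaggct
CHORDC1, chr11:90223084-90223113, minus strand: accgGAAAATTCGCGAAGGTTCCTGAAacg
DNAJB1, chr19:14518456-14518485, minus strand: cgggcggggcgGAAGGTTCtggagggggct
The end of the HSPA1A window and the start of the HSPA1B window share a stretch of 75 bases with 1 mismatch, and the element lies inside it.

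A search of the 250 bases before RefSeq starts, on both strands, covered 47 promoters of 32 member genes and 35116 promoters in all. The 3-unit element, GAANNTTCNNGAA or TTCNNGAANNTTC, was found in 6 member promoters, those of CHORDC1, DNAJB6, HSP90AA1, HSP90AB1, HSPA8 and HSPD1, and in 0.441% of all promoters. The shorter GAANNTTC, which is also part of the longer element, was found for 14 member genes and in 5.78% of all promoters. TTCNNGAA, likewise part of the longer element, was found for 8 member genes and in 6.62% of all promoters. For HSPA9, HSPH1 and BAG3 none of these heat shock letters lay in this window. The ATF4 letters TGATGNAA were found for 2 member genes (3.14% of all promoters) and the NRF2 letters TGACNNNGC for 5 (10.9% of all promoters). A match is a description of the letters, not a shown binding site.

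Summed FPKM ran from 405937 to 472665 per library, read depth is unknown, and mitochondrially encoded RNA made up 2.65% to 5.27%. Of 7 epithelial markers, 6 reached 1 FPKM in every group, while CFTR was at most 0.93 FPKM in CFPAC-1 and 0.11 FPKM in PANC-1. Summed acinar markers reached at most 0.27 FPKM, blood markers 0.09 FPKM and endocrine markers 0, and the endothelial gene PECAM1 lay between 18.5 and 21.3 FPKM in CFPAC-1. As a check of the drug, ATF4 of the amino acid response lay at 91.4 and 94.0 FPKM with DMSO and at 232 and 228 FPKM with IKE in CFPAC-1, and at 99.7 and 98.8 FPKM with DMSO and 105 to 123 FPKM with IKE in PANC-1. The oxidant-induced haem oxygenase gene HMOX1 lay at 20.2 and 18.9 FPKM with DMSO in PANC-1, and at 182, 97.3, 86.4 and 182 FPKM with IKE. In CFPAC-1 HMOX1 was low, at 0.84 and 0.96 FPKM with DMSO and 1.52 and 1.92 FPKM with IKE. ASNS, SLC7A11 and CHAC1 were read as further response genes. ASNS lay at 11.1 to 11.45 FPKM with DMSO and 64.2 to 72.6 FPKM with IKE in CFPAC-1. In PANC-1 ASNS lay at 47.3 to 52.8 FPKM with DMSO and 116 to 146 FPKM with IKE. SLC7A11 was higher with IKE in both lines, and CHAC1 was higher in CFPAC-1 and overlapped in PANC-1.

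The first question was which of these genes changed in the cells that survived IKE. In PANC-1, 5 of 35 tested members rose and 0 fell: the HSP70 genes HSPA1A, HSPA1B and HSPA8, the mitochondrial HSP70 gene HSPA9, and the HSP70 cochaperone gene BAG3 (limma, adjusted p under 0.05 over all genes tested). Over all genes tested in PANC-1, 1.21% rose and 1.17% fell. In CFPAC-1, 1 member rose, HSPA8, and 0 fell, against 0.864% and 0.459% of all genes. At an unadjusted p under 0.05, 14 members were higher and 0 lower in PANC-1, where 8.37% of all genes were higher and 9.25% lower. In CFPAC-1 6 were higher and 2 lower, where 6.50% of all genes were higher and 7.10% lower. The median change of the members was 0.16 on the log2 scale in PANC-1, where that of all genes was -0.0063, and 0.05 in CFPAC-1, where that of all genes was 0. All IKE libraries lay above all DMSO libraries for 15 members and below them for 0 in PANC-1, compared with 12.3% and 13.6% of all genes. In CFPAC-1 they lay above for 14 and below for 6, compared with 23.0% and 23.9% of all genes. The mitochondrially encoded share was 2.80% and 3.65% with DMSO and 3.13% to 5.27% with IKE in PANC-1, and the summed epithelial markers were 6505 to 6847 FPKM with DMSO and 5960 to 6051 FPKM with IKE in CFPAC-1. Their part in these counts was not tested. The count in PANC-1 depended on its DMSO libraries: it was 0 without DMSO replicate 1, 1 without DMSO replicate 2, and 7 without IKE replicate 2. It was also 0 in a fit of PANC-1 alone, and the count in CFPAC-1 was 0 without any 1 of its 4 libraries.

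**Figure D1:**
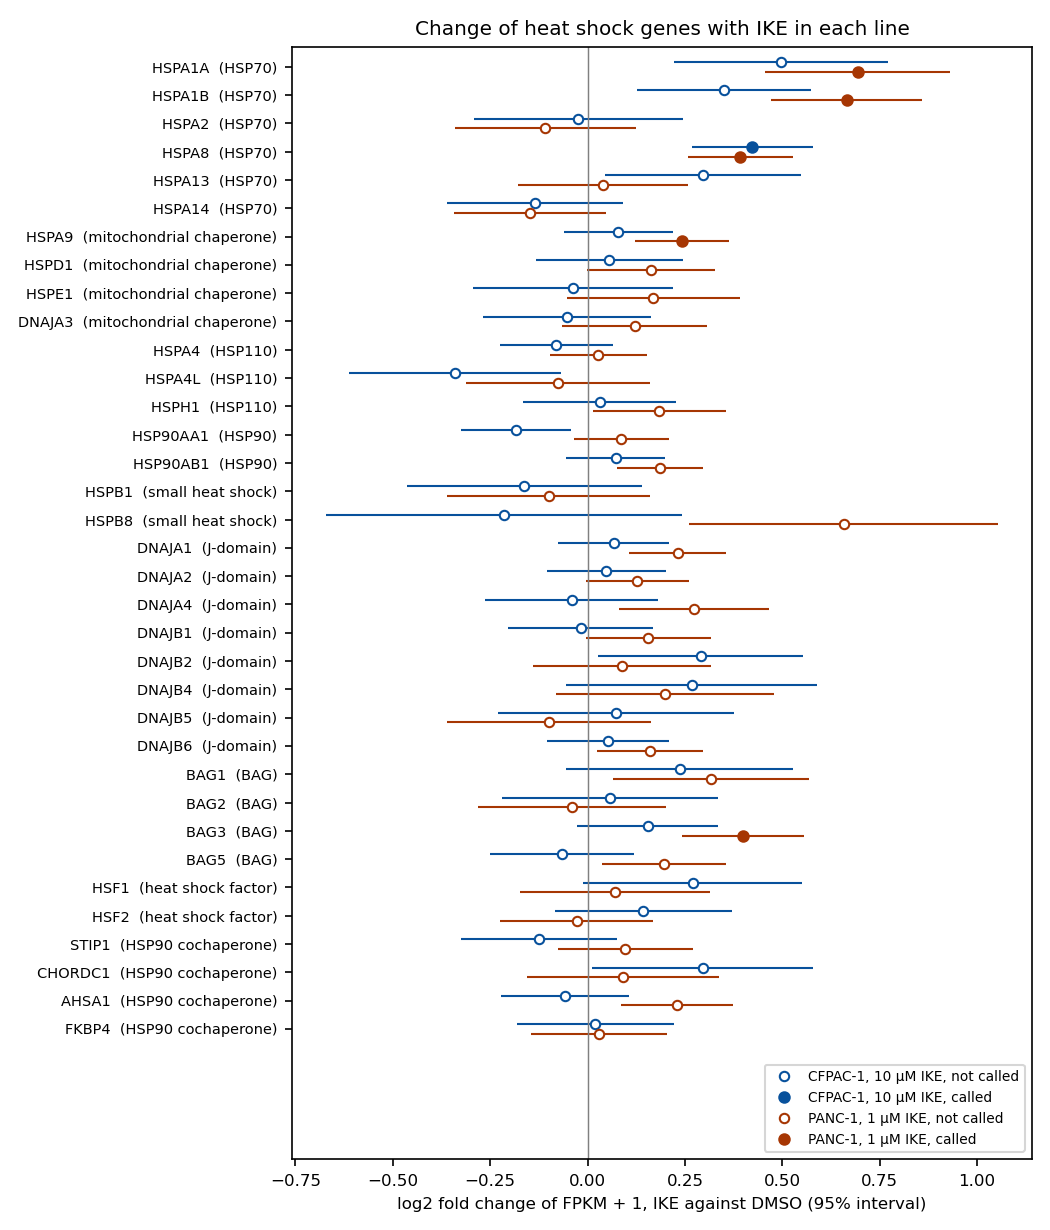
Log2 fold changes of FPKM + 1 (x axis) with 95% intervals for the 35 tested members, ordered by role, in CFPAC-1 (blue, 10 µM) and PANC-1 (brown, 1 µM); filled points passed the test. The filled points are HSPA8 in both lines and HSPA1A, HSPA1B, HSPA9 and BAG3 in PANC-1, all to the right of 0.

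HSPA8 encodes the constitutive cytosolic HSP70, HSC70, which folds new proteins and uncoats clathrin vesicles (ENSG00000109971, chromosome 11, 123057489 to 123063230, minus strand, GRCh38, GENCODE 29). In CFPAC-1 it measured 254 and 250 FPKM with DMSO and 336 and 339 FPKM with IKE. In PANC-1 it measured 909 and 903 FPKM with DMSO and 1268, 1155, 1119 and 1221 FPKM with IKE. The groups did not overlap in either line, and HSPA8 was the 1 member that rose in both. The rise was 0.42 on the log2 scale in CFPAC-1 (SE 0.07, adjusted p = 0.0131, limma) and 0.39 in PANC-1 (SE 0.06, adjusted p = 0.00834, limma). The difference between these changes was -0.03 (95% interval -0.24 to 0.18, adjusted p = 0.924, limma). The CFPAC-1 call ended without any 1 of the 4 CFPAC-1 libraries (adjusted p 0.0907 to 0.135) and the PANC-1 call without DMSO replicate 1 or 2 (adjusted p = 0.109 and 0.0782). With quantile normalization the PANC-1 rise was 0.16 (adjusted p = 0.434) and the CFPAC-1 rise 0.42 (adjusted p = 0.0732), and the gene also holds the snoRNA genes SNORD14C, SNORD14D and SNORD14E and has 17 named pseudogenes.

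HSPA1A (ENSG00000204389, chromosome 6, 31815464 to 31817946, plus strand) and HSPA1B (ENSG00000204388, chromosome 6, 31827735 to 31830255, plus strand) encode the HSP70 that cells make under stress. Their coding regions of 1926 bases differ at 4 positions (99.79% identity), with 1709 bases in a row the same, so the division of reads between them is uncertain. In CFPAC-1 HSPA1A measured 56.0 and 47.7 FPKM with DMSO and 72.3 and 74.4 FPKM with IKE. The PANC-1 values were 63.8 and 68.1 FPKM with DMSO and 124, 98.2, 93.4 and 117 FPKM with IKE. For both lines every IKE library lay above every DMSO library. HSPA1A rose by 0.69 on the log2 scale in PANC-1 (SE 0.11, adjusted p = 0.00842, limma). In CFPAC-1 its difference of 0.50 (SE 0.13) did not pass the test (adjusted p = 0.0851, limma).

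HSPA1B measured 56.8 and 49.9 FPKM with DMSO and 69.8 and 66.6 FPKM with IKE in CFPAC-1. In PANC-1 it measured 43.7 and 43.2 FPKM with DMSO and 77.3, 68.1, 61.0 and 72.5 FPKM with IKE. Again no IKE library overlapped a DMSO library of its line. HSPA1B rose by 0.66 on the log2 scale in PANC-1 (SE 0.09, adjusted p = 0.00385, limma), and its CFPAC-1 difference was 0.35 (SE 0.10, adjusted p = 0.143). The ratio of HSPA1A to HSPA1B in FPKM lay between 0.956 and 1.12 in the 4 CFPAC-1 libraries and between 1.44 and 1.61 in the 6 PANC-1 libraries. Summed, the pair rose by 0.69 in PANC-1 (SE 0.10, adjusted p = 0.00547), from 108 and 111 FPKM to 154 to 201 FPKM, and differed by 0.43 in CFPAC-1 (SE 0.11, adjusted p = 0.105). Without PANC-1 DMSO replicate 1 the calls of HSPA1A (adjusted p = 0.135), HSPA1B (adjusted p = 0.0548) and their sum (adjusted p = 0.0860) ended, and without DMSO replicate 2 that of HSPA1A (adjusted p = 0.0602).

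BAG3 encodes the nucleotide exchange factor that links HSP70 and small heat shock proteins to autophagy of damaged proteins (ENSG00000151929, chromosome 10, 119651370 to 119677819, plus strand). It measured 37.4 and 40.6 FPKM with DMSO in PANC-1 and 51.0, 49.9, 52.4 and 53.3 FPKM with IKE. In CFPAC-1 it measured 21.7 and 18.5 FPKM with DMSO and 22.6 and 22.2 FPKM with IKE. The groups did not overlap in either line, though in CFPAC-1 the gap was smaller than the spread of the DMSO pair. BAG3 rose by 0.40 on the log2 scale in PANC-1 (SE 0.07, adjusted p = 0.0173, limma) and differed by 0.15 in CFPAC-1 (adjusted p = 0.459, limma). The PANC-1 call ended without DMSO replicate 1 (adjusted p = 0.215) or 2 (adjusted p = 0.0688), and with IKE replicates 1 and 2 alone (adjusted p = 0.0807). Of the other BAG genes, which release nucleotide from HSP70 in the same way, BAG1, BAG2 and BAG5 did not pass in either line. BAG1 had 16.1 and 19.1 FPKM with DMSO in PANC-1 and 19.7, 23.1, 20.8 and 25.0 FPKM with IKE (log2 fold change 0.32, adjusted p = 0.18, limma). In CFPAC-1 the BAG1 groups did not overlap either (log2 fold change 0.24, adjusted p = 0.488, limma).

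**Figure D2:**
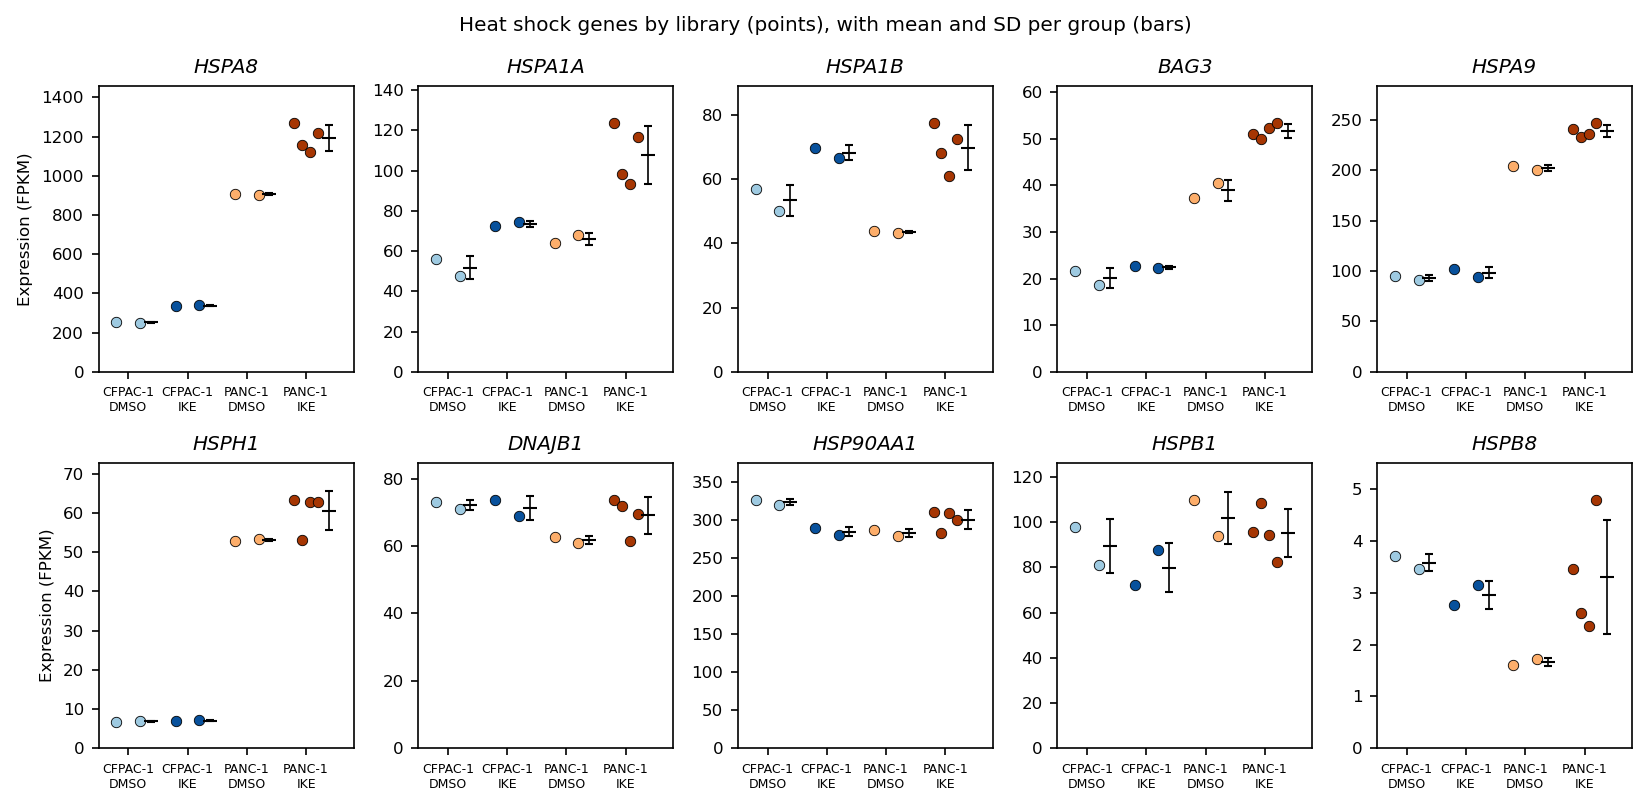
FPKM (y axis, from 0) of 10 members in each library (points), by line and treatment (x axis), with the group mean and SD at the right of each group (n = 2, 2, 2 and 4). HSPA8, HSPA1A, HSPA1B, BAG3 and HSPA9 sit higher with IKE in all 4 PANC-1 libraries, while HSPB1 and DNAJB1 overlap their controls.

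HSPA9 encodes mortalin, the HSP70 that pulls proteins into the mitochondrial matrix and serves iron-sulfur cluster assembly (ENSG00000113013, chromosome 5, 138553756 to 138575724, minus strand). The PANC-1 libraries gave 204 and 200 FPKM with DMSO and 241, 233, 236 and 247 FPKM with IKE. In CFPAC-1 it measured 95.4 and 90.7 FPKM with DMSO and 102 and 94.4 FPKM with IKE. The groups were apart in PANC-1 and overlapped in CFPAC-1. The rise in PANC-1 was 0.24 on the log2 scale (SE 0.05, adjusted p = 0.0462, limma), just inside the threshold, and ended in 17 of 22 alternatives (adjusted p 0.0548 to 0.242). These included leaving out each CFPAC-1 library, each PANC-1 DMSO library, and PANC-1 IKE replicate 1, 3 or 4. HSPD1 and HSPE1, the chaperonin that folds matrix proteins and its lid, and DNAJA3, the mitochondrial J-domain partner of HSPA9, did not pass in either line (log2 fold change 0.12 to 0.17 in PANC-1 and -0.05 to 0.06 in CFPAC-1). The span of HSPE1 lies inside that of HSPD1 on the opposite strand, and HSPE1 overlaps HSPE1-MOB4 on its own strand. HSPD1 and HSPE1 have 17 and 26 named pseudogenes, so their values are uncertain. HSPA9 itself overlaps the snoRNA genes SNORD63 and RF00154 on its own strand and has 1 named pseudogene.

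The HSP110 genes, whose proteins exchange the nucleotide of HSP70 and help to dissolve aggregates, gave 0 calls with IKE (limma). At an unadjusted p under 0.05, 1 of 3 was higher in PANC-1 (HSPH1) and 1 lower in CFPAC-1 (HSPA4L). Over all genes 8.37% were higher and 9.25% lower in PANC-1, and 6.50% and 7.10% in CFPAC-1. HSPH1, a classical target of HSF1 (ENSG00000120694, chromosome 13, 31134974 to 31162388, minus strand), measured 52.8 and 53.3 FPKM with DMSO in PANC-1 and 63.4, 53.1, 62.8 and 62.9 FPKM with IKE. In CFPAC-1 it measured 6.82 and 6.92 FPKM with DMSO and 6.96 and 7.12 FPKM with IKE. In PANC-1, 3 IKE libraries were high and replicate 2 lay within the range of the controls. The log2 fold change of HSPH1 in PANC-1 was 0.18 (SE 0.08, adjusted p = 0.248, limma), and it passed without IKE replicate 2 (0.24, adjusted p = 0.0364), with adjusted p up to 0.637 when another library was left out. In CFPAC-1 it was 0.03 (SE 0.09, adjusted p = 0.941, limma). HSPA4L, in CFPAC-1, had 6.28 and 5.82 FPKM with DMSO and 4.70 and 4.44 FPKM with IKE (log2 fold change -0.34, adjusted p = 0.246, limma), and HSPA4 differed by -0.08 in CFPAC-1 and 0.03 in PANC-1.

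HSP90AA1, the inducible cytosolic HSP90, measured 327 and 321 FPKM with DMSO and 289 and 281 FPKM with IKE in CFPAC-1. In PANC-1 it measured 287 and 279 FPKM with DMSO and 311, 283, 309 and 300 FPKM with IKE. Both IKE libraries were below both controls in CFPAC-1, and the groups overlapped in PANC-1. The log2 fold change was -0.18 in CFPAC-1 (SE 0.06, adjusted p = 0.228, limma) and 0.09 in PANC-1 (SE 0.06, adjusted p = 0.463, limma), so neither passed. HSP90AB1, the constitutive HSP90, had 708 and 710 FPKM with DMSO in PANC-1 and 804, 825, 798 and 799 FPKM with IKE. These groups did not overlap, but the log2 fold change of 0.19 did not pass (SE 0.05, adjusted p = 0.0811, limma). In CFPAC-1 the log2 fold change of HSP90AB1 was 0.07 (adjusted p = 0.668, limma).

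The HSP90 cochaperones STIP1, which passes clients from HSP70, AHSA1, which speeds the ATPase, the immunophilin FKBP4 and CHORDC1 gave 0 calls with IKE in either line (limma). At an unadjusted p under 0.05, 1 of 4 was higher in PANC-1 and 1 in CFPAC-1, where 8.37% and 6.50% of all genes were. AHSA1 came nearest in PANC-1, with 46.9 and 49.3 FPKM with DMSO and 53.0, 57.3, 58.9 and 57.1 FPKM with IKE (log2 fold change 0.23, adjusted p = 0.0929, limma). In CFPAC-1 the AHSA1 groups overlapped (log2 fold change -0.06, adjusted p = 0.814, limma). CHORDC1 had the longest run of heat shock units among the windows printed above. In CFPAC-1 it measured 4.98 and 4.91 FPKM with DMSO and 5.58 and 7.09 FPKM with IKE (log2 fold change 0.30, adjusted p = 0.344, limma). In PANC-1 its groups overlapped, and the log2 fold change was 0.09 (adjusted p = 0.741, limma).

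Of the 8 J-domain genes outside mitochondria, 0 passed with IKE in either line (limma). At an unadjusted p under 0.05, 3 were higher in PANC-1 and 1 in CFPAC-1, where 8.37% and 6.50% of all genes were. In both lines 0 were lower, where 9.25% and 7.10% of all genes were. DNAJB1, the main stress-induced HSP40, measured 73.2 and 71.0 FPKM with DMSO and 73.7 and 68.8 FPKM with IKE in CFPAC-1. Its PANC-1 values were 62.7 and 60.9 FPKM with DMSO and 73.6, 72.0, 61.4 and 69.5 FPKM with IKE. The groups overlapped in both lines, in PANC-1 through IKE replicate 3 alone. The log2 fold change of DNAJB1 was -0.02 in CFPAC-1 (SE 0.08, adjusted p = 0.967, limma) and 0.16 in PANC-1 (SE 0.07, adjusted p = 0.299, limma). DNAJA1, a farnesylated partner of HSP70, had 94.6 and 101 FPKM with DMSO in PANC-1 and 114, 110, 119 and 116 FPKM with IKE, with no overlap. Its log2 fold change of 0.23 lay just outside the threshold (SE 0.06, adjusted p = 0.0592, limma) and passed without IKE replicate 2 (0.25, adjusted p = 0.0338), and its adjusted p ran up to 0.423 with another library left out. DNAJB4 had 9.07 and 7.94 FPKM with DMSO in PANC-1 and 10.7, 10.0, 9.95 and 9.0 FPKM with IKE, which overlapped (log2 fold change 0.20, adjusted p = 0.465, limma). In CFPAC-1 the log2 fold change was 0.27 for DNAJB4 (adjusted p = 0.479, limma) and 0.07 for DNAJA1 (adjusted p = 0.734, limma). The J-domain genes ran from -0.10 for DNAJB5 to 0.27 for DNAJA4 in PANC-1, and from -0.04 for DNAJA4 to 0.29 for DNAJB2 in CFPAC-1.

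Of the small heat shock genes, HSPB1 and HSPB8 were tested and 0 passed in either line (limma). At an unadjusted p under 0.05, 1 was higher in PANC-1 and 0 in CFPAC-1, where 8.37% and 6.50% of all genes were. HSPB1 encodes HSP27, which holds unfolding proteins, binds actin filaments and is described as a restraint on erastin-induced death. It measured 97.9 and 81.0 FPKM with DMSO and 72.2 and 87.5 FPKM with IKE in CFPAC-1. In PANC-1 it measured 110 and 93.9 FPKM with DMSO and 95.8, 108, 94.2 and 82.3 FPKM with IKE. The groups overlapped in both lines. The log2 fold changes of HSPB1 were -0.16 (95% interval -0.46 to 0.14, adjusted p = 0.688, limma) in CFPAC-1 and -0.10 (95% interval -0.36 to 0.16, adjusted p = 0.732, limma) in PANC-1. HSPB8, the small heat shock partner of BAG3, was low, with 1.61 and 1.72 FPKM with DMSO in PANC-1 and 3.46, 2.61, 2.35 and 4.79 FPKM with IKE. These did not overlap, but they spread widely, and the log2 fold change of 0.66 did not pass (SE 0.18, adjusted p = 0.0845, limma). It passed without IKE replicate 3 (0.77, adjusted p = 0.0451), and its adjusted p ran up to 0.393 with another library left out. With a pseudocount of 0.1 the difference was 0.89 (adjusted p = 0.0845). In CFPAC-1 HSPB8 had 3.70 and 3.46 FPKM with DMSO and 2.76 and 3.14 FPKM with IKE (log2 fold change -0.21, adjusted p = 0.731, limma).

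Neither heat shock factor gene passed with IKE. HSF1 (ENSG00000185122), the master factor of the response, which is controlled mostly after translation, measured 24.3 and 32.6 FPKM with DMSO and 33.9 and 34.3 FPKM with IKE in CFPAC-1. The PANC-1 libraries showed 43.7 and 48.3 FPKM with DMSO and 47.3, 53.1, 43.0 and 50.2 FPKM with IKE. Its groups overlapped in PANC-1, and in CFPAC-1 the DMSO pair differed by more than the gap to IKE. The log2 fold changes of HSF1 were 0.27 in CFPAC-1 (SE 0.13, adjusted p = 0.391, limma) and 0.07 in PANC-1 (SE 0.11, adjusted p = 0.813, limma). HSF2, its relative, changed by 0.14 and -0.03 on the same scale (adjusted p = 0.622 and 0.917). The remaining HSP70 genes, HSPA2, HSPA13 and HSPA14, did not pass in either line (limma). They ran from -0.15 to 0.04 in PANC-1 and from -0.14 to 0.30 in CFPAC-1. HSPA13 alone was at an unadjusted p under 0.05, higher in CFPAC-1, where 6.50% of all genes were.

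The next question was whether the response differed between the lines. Of 35 members, 0 had a called difference between the PANC-1 and CFPAC-1 changes in either direction (limma), while 0.336% of all genes did, and at an unadjusted p under 0.05 there were 7 larger in PANC-1 and 0 smaller, beside 5.83% and 6.52% of all genes. These 7 were HSPA1B, HSP90AA1, HSPB8, DNAJA4, BAG3, BAG5 and AHSA1. The widest was HSPB8, at 0.87 on the log2 scale (95% interval 0.27 to 1.48, adjusted p = 0.235, limma). HSP90AA1 differed by 0.27 (95% interval 0.08 to 0.46, adjusted p = 0.235, limma), with opposite signs in the lines. For BAG3 the difference was 0.24 (95% interval 0.0043 to 0.48, adjusted p = 0.395, limma), and for HSPA1A it was 0.20 (95% interval -0.17 to 0.56, adjusted p = 0.678, limma). So the 4 genes that passed in PANC-1 and not in CFPAC-1 were not shown to respond differently.

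The last comparison asked how the lines differed without drug. More members differed there than with IKE in either line, and the same held over all genes tested. Of all genes, 78.7% were called between the lines, 2.38% with IKE in PANC-1 and 1.32% with IKE in CFPAC-1. Of 35 members, 24 were higher in PANC-1 and 7 lower, where 43.4% of all genes were higher and 35.2% lower (limma). The median difference of the members was 0.92 on the log2 scale, against 0.12 over all genes. This comparison shares its DMSO libraries with both IKE comparisons. Markers differed too: the 4 mesenchymal markers summed to 601 to 641 FPKM in CFPAC-1 and 1936 to 2109 FPKM in PANC-1. VIM made up most of this sum, at 529 to 571 FPKM in CFPAC-1 and 1910 to 2083 FPKM in PANC-1. ZEB1 was also higher in PANC-1, whereas CDH2 and FN1 were lower there. The 7 epithelial ones summed to 6505 to 6847 FPKM in CFPAC-1 and 5105 to 5651 FPKM in PANC-1. Of these KRT18 was higher in PANC-1, KRT8 overlapped, and KRT7, KRT19, EPCAM, CDH1 and CFTR were lower. The part of these markers in the result was not tested. HSPH1 had the largest difference, with 6.82 and 6.92 FPKM in CFPAC-1 and 52.8 and 53.3 FPKM in PANC-1 (log2 fold change 2.78, SE 0.09, adjusted p = 1.18e-10). CHORDC1 followed, with 4.98 and 4.91 FPKM against 35.9 and 39.1 FPKM (2.69, SE 0.13, adjusted p = 3.51e-09). DNAJA1 came next, with 22.5 and 21.4 FPKM against 94.6 and 101 FPKM (2.11, SE 0.07, adjusted p = 8.72e-11). In each of these the 2 libraries of a line lay close together and far from the other line.

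HSPA8, at 1.84 on the log2 scale (adjusted p = 5.00e-10, limma), held rank 3 among the members in FPKM in CFPAC-1 with DMSO and rank 1 in PANC-1, while HSP90AB1 held rank 1 in CFPAC-1. By role, 4 of 4 mitochondrial chaperones, 3 of 3 HSP110 genes, 4 of 4 HSP90 cochaperones and both heat shock factors were higher in PANC-1. Over all genes tested, 43.4% were higher there and 35.2% lower, and the counts by role are small. The other roles were mixed: 2 of 6 HSP70 genes were higher and 2 lower, 1 HSP90 gene higher and 1 lower, 5 of 8 J-domain genes higher and 2 lower, 3 of 4 BAG genes higher and 1 lower, and of the small heat shock genes 0 higher and 1 lower. HSF2 was higher by 1.83 (adjusted p = 1.57e-08, limma) and HSF1 by 0.69 (adjusted p = 4.00e-04, limma). The lower genes were led by DNAJA4, a J-domain gene, with 12.2 and 11.9 FPKM in CFPAC-1 and 4.78 and 4.25 FPKM in PANC-1 (log2 fold change -1.24, SE 0.10, adjusted p = 3.87e-07, limma). HSPB8 (-0.78, SE 0.21, adjusted p = 0.00474, limma) and HSPA2, an HSP70 best known in testis (-0.71, SE 0.12, adjusted p = 2.16e-04, limma), were next. HSPB1, DNAJB2, HSPA13 and HSPA14 did not pass.

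HSPA1A and HSPA1B went opposite ways between the lines, by 0.35 (adjusted p = 0.0246, limma) and -0.29 (adjusted p = 0.0222, limma). Their sum did not differ beyond its error (0.06, SE 0.11, adjusted p = 0.641, limma), and how reads were divided between the copies was not tested. The calls of 6 members between the lines, HSPA1A, HSPA1B, HSP90AA1, DNAJA2, DNAJB1 and AHSA1, ended when a DMSO library was left out (adjusted p 0.0551 to 0.216), and each of the 4 DMSO libraries ended at least 1 of them. Without CFPAC-1 DMSO replicate 1 or PANC-1 DMSO replicate 2 the members lower in PANC-1 numbered 4. Median-ratio scaling moved the median of all genes from 0.12 to -0.0054, and 21 members were then higher and 7 lower. Quantile normalization, median-ratio scaling and rescaling to a shared total each ended the calls of HSPA1A (adjusted p 0.0580 to 0.133, limma) and DNAJA2 (0.205 to 0.459). That of AHSA1 ended with median-ratio scaling (adjusted p = 0.0898, limma) and that of HSP90AA1 with quantile normalization (adjusted p = 0.0934, limma).

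**Figure D3:**
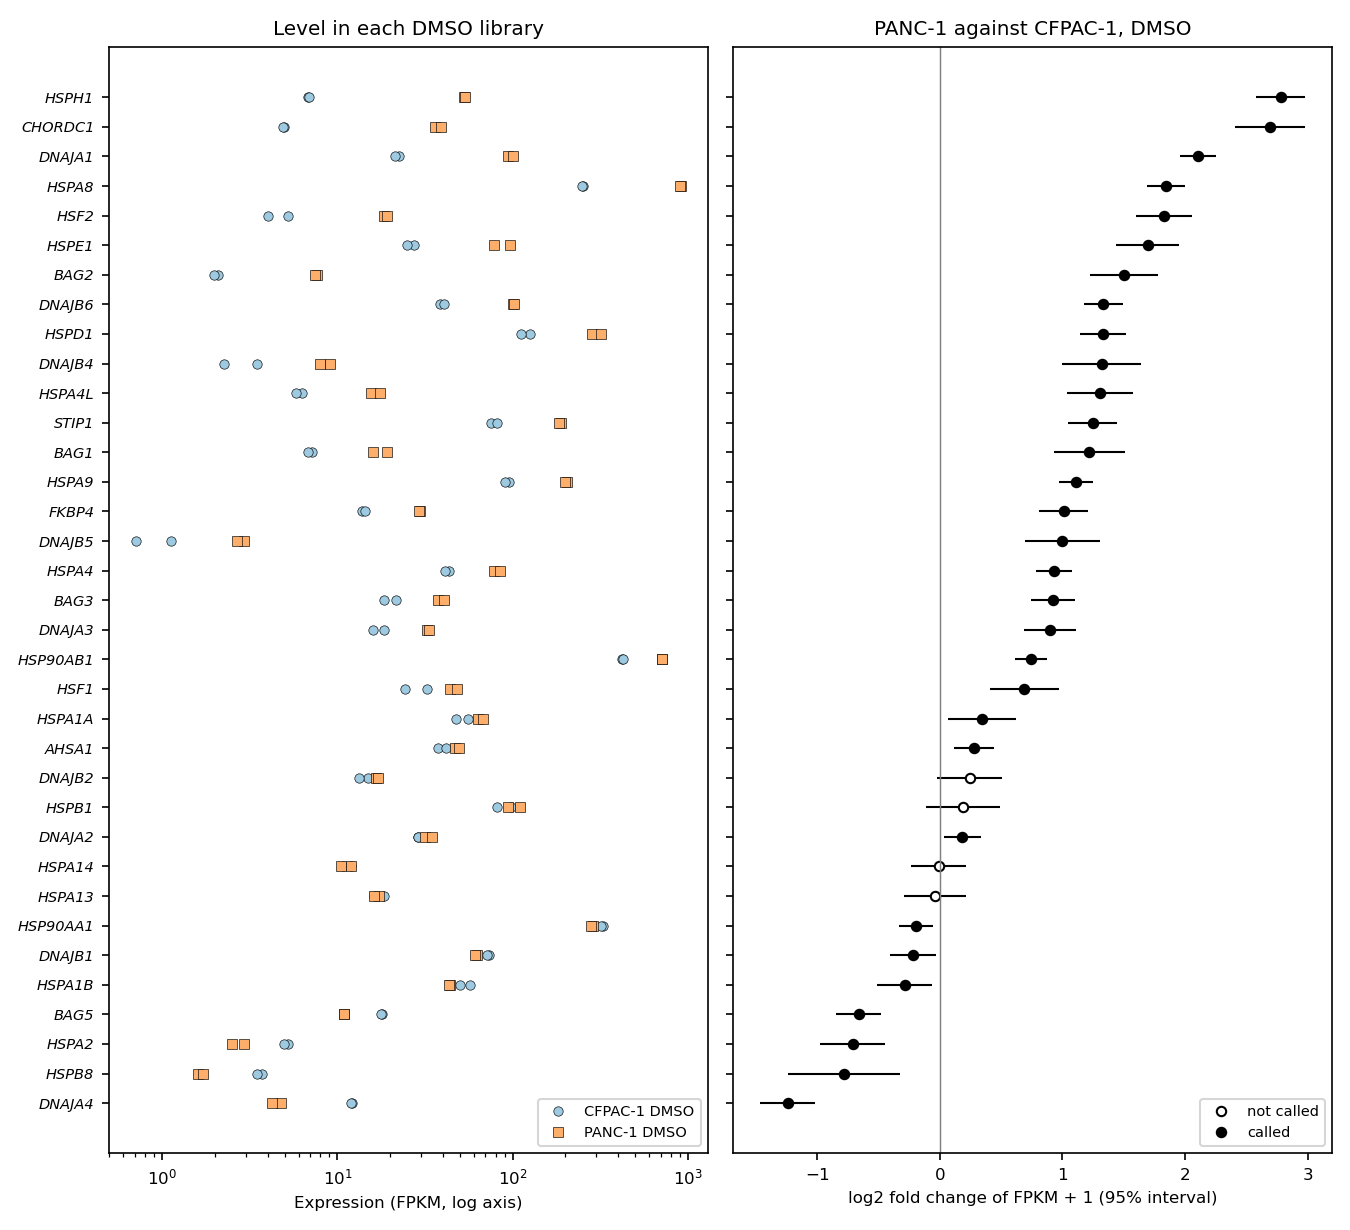
Left, FPKM (log axis) of the 35 tested members in each DMSO library of CFPAC-1 (circles) and PANC-1 (squares); right, the log2 fold change of FPKM + 1 between the lines with its 95% interval, filled where it passed the test. The members run from HSPH1 at 2.78 at the top to DNAJA4 at -1.24 at the bottom.

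Summed over the 36 members, the share of all FPKM was 0.487% and 0.463% in the CFPAC-1 libraries with DMSO and 0.498% and 0.493% with IKE. In PANC-1 it was 0.846% and 0.832% with DMSO and 0.994%, 0.904%, 0.947% and 0.982% with IKE. The IKE libraries lay above the controls in both lines, and the lines lay further apart than the treatments. In CFPAC-1, however, the gap was smaller than the spread of the DMSO pair. The share of HSPA8 alone there was 0.0625% and 0.0601% with DMSO and 0.0808% and 0.0815% with IKE. In PANC-1 the share of HSPA8 alone was 0.210% and 0.203% with DMSO and 0.244% to 0.286% with IKE. The pair HSP90AA1 and HSP90AB1 held 0.222% to 0.230% with DMSO and 0.234% to 0.251% with IKE there, whereas in CFPAC-1 it held 0.184% and 0.179% with DMSO and 0.177% and 0.173% with IKE. Replicates of a group were close: the median coefficient of variation of the members was 4.41%, 3.34%, 4.57% and 7.82% in CFPAC-1 DMSO, CFPAC-1 IKE, PANC-1 DMSO and PANC-1 IKE.

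**Figure D4:**
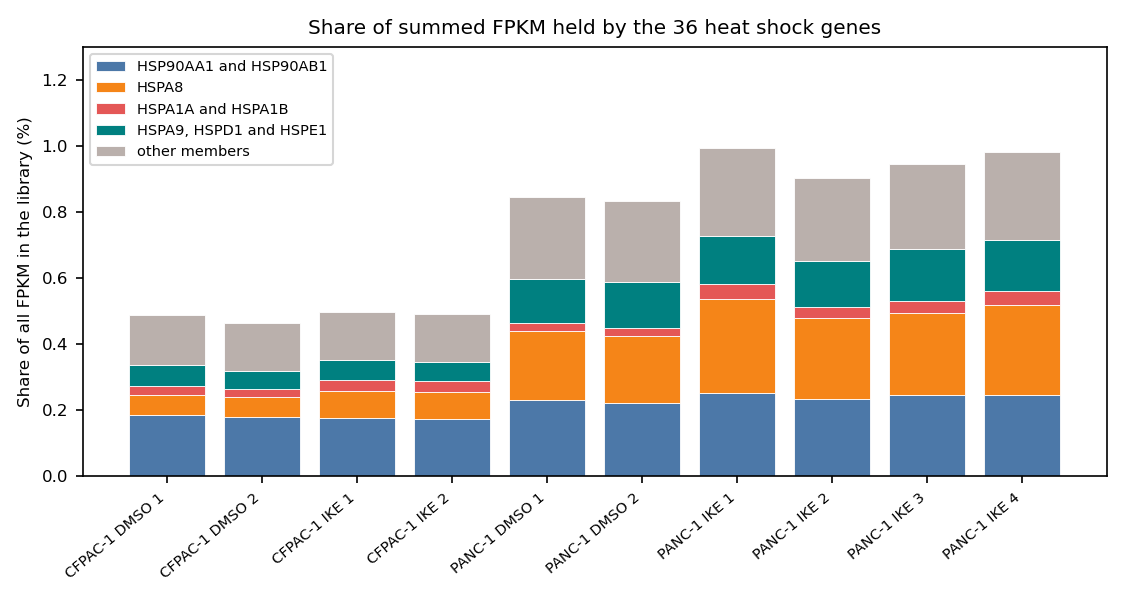
Share of all FPKM in each library (y axis, percent) held by the 36 members, stacked by gene group. The bars reach 0.463% to 0.498% in CFPAC-1 and 0.832% to 0.994% in PANC-1, and the HSPA8 segment holds 0.0601% to 0.0815% in CFPAC-1 and 0.203% to 0.286% in PANC-1.

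The rest of the chaperone system was read from 9 lists holding 121 other genes, of which 103 were tested. In PANC-1 8 of these rose and 0 fell with IKE, where 1.21% and 1.17% of all genes did, and in CFPAC-1 1 rose and 0 fell, where 0.864% and 0.459% did (limma). At an unadjusted p under 0.05, 20 were higher and 2 lower in PANC-1, where 8.37% and 9.25% of all genes were. In CFPAC-1 6 were higher and 5 lower, where 6.50% and 7.10% of all genes were. HSPA5, the HSP70 of the endoplasmic reticulum also called BiP, measured 142 and 146 FPKM with DMSO in PANC-1 and 208, 213, 190 and 209 FPKM with IKE (log2 fold change 0.51, SE 0.06, adjusted p = 0.00199, limma). In the same compartment HYOU1, its exchange factor (0.32, adjusted p = 0.0295), HSP90B1, the HSP90 paralog GRP94 (0.32, adjusted p = 0.0365), and SIL1 (0.33, adjusted p = 0.0484) rose in PANC-1. LONP1, the mitochondrial matrix protease, rose by 0.43 (adjusted p = 0.0325, limma).

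SQSTM1, the autophagy receptor p62 and a known NRF2 target, rose in both lines. It measured 117 and 111 FPKM with DMSO and 183 and 176 FPKM with IKE in CFPAC-1 (log2 fold change 0.65, SE 0.09, adjusted p = 0.00242, limma). In PANC-1 the levels were 262 and 256 FPKM with DMSO and 468, 439, 388 and 464 FPKM with IKE (0.76, SE 0.07, adjusted p = 8.20e-04, limma). JUN, an immediate early transcription factor gene, rose in PANC-1 by 0.66 (adjusted p = 0.0144, limma). The calls of SQSTM1 and HSPA5 were kept in all 22 alternatives, whereas those of HYOU1, HSP90B1, SIL1, LONP1 and JUN ended without PANC-1 DMSO replicate 1 (adjusted p 0.154 to 0.387). Of the 22 alternatives, 17 ended the call of SIL1, 16 that of HSP90B1, 12 that of HYOU1, 11 that of LONP1 and 3 that of JUN. None of 34 other J-domain genes, 17 other HSP90 cochaperones and 14 genes of the TRiC chaperonin and prefoldin passed with IKE in either line (limma). At an unadjusted p under 0.05, 1, 4 and 1 of these lists' genes were higher and 0, 0 and 1 lower in PANC-1, where 8.37% and 9.25% of all genes were. In CFPAC-1 2, 1 and 0 were higher and 0, 2 and 1 lower, where 6.50% and 7.10% of all genes were. Between the lines 57 of the 103 genes were higher in PANC-1 and 24 lower, where 43.4% and 35.2% of all genes were.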

How the data were processed

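RNA was depleted of rRNA and reverse transcribed with random primers, and uracil-N-glycosylase digested the strand made last, per the labels' protocols. The authors deposited FPKM with 2 decimals for 20289 genes. The submitters' processing notes name HISAT2 2.1.0, StringTie 1.3.4, DESeq2, Bowtie2 2.2.8 and fastp 0.18.0, and the build GRCh38. The sources used here do not say whether counting used strand, so overlapping genes are uncertain. Replicates are called bioreplicates, with no word on separate cultures, so p-values measure the spread between these libraries, which may be technical.

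Genes with at least 1 FPKM in 2 or more libraries were fitted as log2(FPKM + 1) in limma 3.58.1 (R 4.3.3), with a mean per group over all 10 libraries and an intensity trend (degrees of freedom 6 residual and 5.1 prior). All tests were two-sided, adjusted by Benjamini-Hochberg over 13077 genes, at 0.05. The fit was run on simulated data drawn with its own variances, which cannot show whether the model suits these FPKM. There it recovered 46.6% of 1.35-fold changes of well-expressed genes in CFPAC-1 and 71.9% in PANC-1. For 2-fold changes it recovered 99.5% and 99.7%. A smaller change can thus fail to pass. By rule, members called with IKE and a named panel (HSPA1A, HSPA1B, HSPH1, DNAJB1, BAG3, HSPB1, HSP90AA1, HSF1) were given by library, the 3 largest differences each way between the lines were named, and other members were given by range or count. AHSA1, BAG1, CHORDC1, DNAJA1, DNAJB4, HSP90AB1, HSPA4L and HSPB8 were also given by library, chosen after their values were seen. Of other lists at most the 2 called genes of smallest p were named. A called gene of those lists is not reported here. Members and lists were chosen with earlier results of these data known. Alternatives changed scaling, filter, pseudocount, variance prior, block, libraries used and the HSPA1 pair.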

Additional observations from a re-analysis of the deposited data

Results flagged for a closer look

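In the 36 members, the 4 PANC-1 IKE libraries were checked for a library far from the others (gap to the nearest, over the range, above Dixon's 95% critical value), which chance alone gives in about 5% of groups. HSPH1 was lowest in replicate 2, at 53.1 FPKM, with a gap of 0.942 of the range. DNAJA4 was lowest in replicate 3, at 5.12 FPKM, with a gap of 0.861 of the range. The other groups have 2 libraries and were not checked.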

How the results depend on the processing

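The members called higher in PANC-1 with IKE, 5 in the fit reported, numbered 3 with quantile normalization, 3 with IKE replicates 1 and 2 alone, 0 in a fit per line, and 0 to 7 when each library was left out in turn. In CFPAC-1 the count of 1 became 0 with quantile normalization and 0 to 1 with a library left out. Members lower in PANC-1 than in CFPAC-1, 7, ranged from 4 to 7. The summed HSPA1A and HSPA1B change in PANC-1 was 0.69 in a fit per line, where its call ended (adjusted p = 0.0704), and 0.63 to 0.75 with a library left out. With the replicate block, which drops PANC-1 IKE replicates 3 and 4, 3 members were called higher in PANC-1. No pairing by number was seen: deviations of same-numbered libraries correlated at -0.0015 to 0.05 across genes, which cannot exclude a weak shared effect. Leaving out a library of a group of 2 assumes that the one left varies like the other groups. No called change of a member reversed in the alternatives run, and all 0 counts of falls with IKE and of differences between the lines stayed 0. Over all genes, calls in PANC-1 were 311 in the fit reported, 32 in a fit per line, 154 with the replicate block, 170 with IKE replicates 1 and 2 and 469 with 3 and 4 alone, and 42 to 503 with a library left out. In CFPAC-1 they were 173, 57 in a fit per line, 262 with quantile normalization, and 85 to 255 with a library left out. Called differences between the lines' responses, 44 over all genes, ran from 14 to 69, and a fit per line cannot give them. Read depth is unknown, and 2 libraries a group limit the precision.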

Other observations

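HSPA1A, HSPA1B and HSPA8 shared 1 order over the 4 PANC-1 IKE libraries, replicate 1 highest, then 4, 2 and 3, as did SQSTM1 and JUN among the other genes. This order is that of HSPA1A, picked out after the values were seen. It held for 3 of 35 tested members (8.57%) and for 496 of all 13077 genes (3.79%). HSPA1A matches it by definition and HSPA1B is a near-identical copy, so comparing these shares tests nothing. HMOX1, induced by haem and oxidants, was 182 FPKM in replicates 1 and 4, and 97.3 and 86.4 FPKM in replicates 2 and 3. The mitochondrially encoded share was 3.13% in replicate 1, 3.76% in replicate 4, 3.65% in replicate 2 and 5.27% in replicate 3, and its part in the order was not tested. BAG3 ran differently, from 53.3 FPKM in replicate 4 to 49.9 FPKM in replicate 2, a range of the size of its DMSO pair.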
